A study of Mus musculus with 24 samples.

Results

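Of the 54752 genes measured in bone marrow cells of flown and ground mice, 8 genes of fatty acid use are described here: Acot1, Acot2, Plin2, Cpt1a, Pdk4, Acadvl, Acadm and Hadha. Acot1 was picked by its rise after flight in WT mice, and the other 7 were named with it as genes of the same metabolism that respond to PPAR nuclear receptors. The rise of Acot1 in WT mice is therefore a description with no test, as are all values of Acot1 and of its near copy Acot2 in comparisons that use WT mice. Both genes were tested between FL-KO and GC-KO mice, whose values the choice did not use. Of the 8 genes, 7 had more than 1 TPM (the unit of the deposited values, a level per transcript length and library) in at least 1 library and were tested. Pdk4 did not reach this level.

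Fatty acids are held in cells as esters of coenzyme A before they are burned, stored or built into membranes. Acyl-CoA thioesterases such as Acot1, of the cytosol, and Acot2, of mitochondria, split these esters back into free fatty acid and coenzyme A. Plin2 coats lipid droplets, Cpt1a makes the acylcarnitines that enter mitochondria, and Acadvl, Acadm and Hadha are enzymes of mitochondrial beta-oxidation. Pdk4 inhibits pyruvate dehydrogenase and so spares glucose when fatty acids are burned. PPAR receptors, which bind fatty acids, raise many of these genes in liver, heart and muscle.

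The mice were male, WT or Nrf2-KO, and were kept on the ground (GC) or sent to space for 31 days (FL). Each of the 4 groups (GC-WT and GC-KO on the ground, FL-WT and FL-KO in flight) had 6 mice with 1 library per mouse, so the replicates were separate animals. Flight mice were 8 weeks old at transport and were sampled after their return, 2 days after landing, so "in flight" here means mice that flew. The ground mice were kept at another site, and the effects of space, landing and site cannot be told apart. The GC-KO and FL-KO mice lacked Nrf2, the regulator of antioxidant genes, in all tissues, and RNA came from whole, unsorted bone marrow cells that had been frozen. In such a mixture, fewer cells of a type and less RNA per cell cannot be told apart.

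Nfe2l2, the gene of Nrf2, lay between 11.4 and 27.3 TPM in the 12 WT mice and between 2.22 and 7.18 TPM in the 12 Nrf2-KO mice. The 11 erythroid markers found summed to between 87030 and 244800 TPM and the 8 mature neutrophil markers to between 24310 and 61850 TPM, so the libraries held the main cells of marrow. Rn7s1, Rn7s2, Rn7sk, Rpph1 and Rmrp alone took from 35.4% to 59.6% of TPM. The levels of most tested genes were lower after flight and without Nrf2. Over the 12373 tested genes, the median log2 fold change of TPM + 1 after flight was -0.24 in WT mice (FL-WT vs. GC-WT) and -0.29 in Nrf2-KO mice (FL-KO vs. GC-KO). Without Nrf2 it was -0.22 on the ground (GC-KO vs. GC-WT) and -0.25 in flight (FL-KO vs. FL-WT). With TPM recomputed without those 5 small RNAs, the medians were -0.31 in WT and -0.21 in Nrf2-KO mice after flight. Without Nrf2 they were then -0.35 on the ground and -0.23 in flight. The part of these RNAs in the lower levels was not tested. Fold changes are thus given at TPM as deposited and, where it matters, relative to the median of all tested genes on that scale. Others are given after median-of-ratios scaling, which divides each library by its median ratio to all libraries. With that scaling, 2154 genes passed the test (an adjusted p below 0.1) as higher and 1970 as lower after flight in WT mice, against 123 and 4821 at TPM as deposited. In Nrf2-KO mice, scaling gave 2236 higher and 2668 lower, against 37 and 6565. For the loss of Nrf2 it gave 3687 higher and 3446 lower on the ground, against 387 and 5306, and 4359 higher and 3857 lower in flight, against 236 and 5844.

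Acot1 (ENSMUSG00000072949.6) lies on chromosome 12 of GRCm38 from 84009490 to 84018371, and Acot2 (ENSMUSG00000021226.7) from 83987861 to 83993873 on the same strand, 15616 bases before it. The 2 genes share long exact stretches. Of the 2514 windows of 100 bases in the longest Acot1 transcript, 301 (12%) also occur in Acot2, and 359 of 2097 windows (17.1%) of the Acot2 transcript occur in Acot1. In addition, 13 windows of the Acot1 transcript occur in Acot5, and Acot3, Acot4, Acot5 and Acot6 have between 9 and 104 windows that occur in a transcript of Acot1. Reads from these stretches had to be divided between the genes by the estimation of TPM. The 250 bases before the RefSeq start sites (GRCm38.p6) of the 2 neighbours, which differed in their response to flight, and of Plin2, whose levels over the libraries were most like those of Acot1 among the 8 genes, were as follows. The windows are chr12:84009252-84009501 on the plus strand for Acot1, chr12:83987611-83987860 on the plus strand for Acot2 and chr4:86670060-86670309 on the minus strand for Plin2.
Acot1: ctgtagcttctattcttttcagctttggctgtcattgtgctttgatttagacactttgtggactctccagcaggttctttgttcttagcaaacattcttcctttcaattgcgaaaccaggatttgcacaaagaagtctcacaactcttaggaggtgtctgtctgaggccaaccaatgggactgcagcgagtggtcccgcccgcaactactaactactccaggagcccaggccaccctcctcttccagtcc
Acot2: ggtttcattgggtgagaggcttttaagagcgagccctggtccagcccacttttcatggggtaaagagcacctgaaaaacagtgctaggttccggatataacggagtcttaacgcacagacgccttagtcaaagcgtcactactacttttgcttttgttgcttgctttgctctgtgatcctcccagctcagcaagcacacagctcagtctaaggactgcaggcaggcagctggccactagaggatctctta
Plin2: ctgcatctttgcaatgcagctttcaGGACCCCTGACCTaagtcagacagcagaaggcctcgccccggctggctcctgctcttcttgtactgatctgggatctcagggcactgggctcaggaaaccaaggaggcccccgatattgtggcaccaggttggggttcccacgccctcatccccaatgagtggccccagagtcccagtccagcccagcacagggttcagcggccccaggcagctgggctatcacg

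These windows were searched on both strands for the direct repeat AGGTCANAGGTCA, to which PPAR receptors bind with RXR partners, allowing 2 mismatches. Plin2 was the only one of the 8 genes with a match, which is shown in capitals, 225 bases before the start site. The match reads on the strand opposite to the printed one. Of all 32851 promoters of this length, 3.24% held a match. The core TGACNNNGC of the antioxidant response element, to which Nrf2 binds, was in none of the 8 windows and in 10.2% of all promoters. A match is a run of letters and not a bound site, and the lack of one says nothing of the regions beyond these 250 bases.

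**Figure D1:**
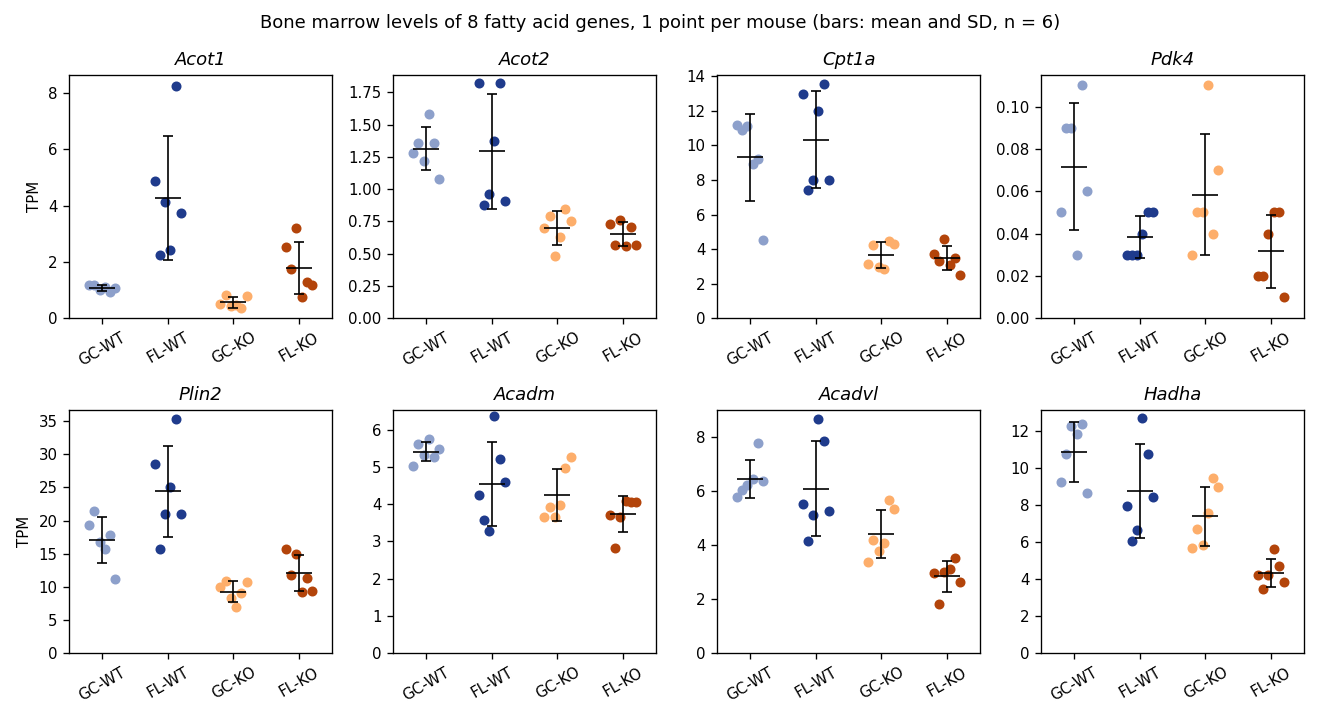
TPM of the 8 genes (vertical axes, each from 0) in the 4 groups, with a point per mouse and bars for the mean and SD of 6 mice. Acot1 was at 2.25 TPM or more in all 6 FL-WT mice and at 1.18 TPM or less in all 6 GC-WT mice, and Pdk4 did not exceed 0.11 TPM in any mouse.

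Among the 8 genes, Acot1 differed most between flight and ground. In GC-WT mice it ranged from 0.94 to 1.18 TPM with a median of 1.09. In FL-WT mice it ranged from 2.25 to 8.26 TPM with a median of 3.94. All 6 FL-WT mice were above all 6 GC-WT mice, with the highest value in mouse 8 and the lowest in mouse 5. The mean was 4.28 ± 2.20 TPM (SD, n = 6) in FL-WT mice, 3.98 times the 1.08 ± 0.0977 TPM (SD, n = 6) of GC-WT mice. On the log2(TPM + 1) scale, which understates changes of low genes, this was a fold change of 1.25. These values chose the gene. Of all tested genes, 0.0970% lay wholly above the ground mice in WT flight mice, and 1.0% were DEGs (genes that passed the test with a change of at least 2-fold) in either direction.

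Acot1 was also higher after flight in Nrf2-KO mice. In GC-KO mice it ranged from 0.37 to 0.81 TPM with a median of 0.485, and in FL-KO mice from 0.77 to 3.21 TPM with a median of 1.52. Of the 6 FL-KO mice, 5 were above every GC-KO mouse, and mouse 9 at 0.77 TPM fell within the range of the ground mice. The mean was 1.79 ± 0.917 TPM (SD, n = 6) against 0.567 ± 0.190 TPM (SD, n = 6), a ratio of 3.16. The log2 fold change was 0.78 ± 0.20 (SE, 95% confidence interval 0.37 to 1.18, limma, adjusted p = 0.00392), and the exact permutation test (two-sided) gave p = 0.00649. Relative to the median of all genes the fold change was 1.07. Acot1 missed the 2-fold threshold of a DEG on the TPM + 1 scale, and passed it with median-of-ratios scaling, at 1.06 (adjusted p = 0.0014).

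Acot2 changed less than its neighbour. GC-WT mice averaged 1.31 ± 0.167 TPM (SD, n = 6) and FL-WT mice 1.29 ± 0.445 TPM (SD, n = 6), where it ranged from 0.88 to 1.82 TPM around a median of 1.17. In Nrf2-KO mice it ranged from 0.48 to 0.85 TPM (median 0.725) on the ground and from 0.56 to 0.76 TPM (median 0.64) in flight, and the groups overlapped. The log2 fold change in FL-KO vs. GC-KO was -0.04 (95% confidence interval -0.26 to 0.18, limma, adjusted p = 0.755), and it was 0.15 with median-of-ratios scaling (adjusted p = 0.196). With the GC content and length trends of each library removed it was 0.34 (adjusted p = 0.0127).

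The share of Acot1 in the summed TPM of both thioesterases does not depend on the scaling between libraries. In WT mice it was 45.2% ± 3.47 (SD, n = 6) on the ground, from 40.9% to 49.5%, and 75.3% ± 7.16 (SD, n = 6) in flight, from 63.8% to 81.9%. In Nrf2-KO mice it was 44.2% ± 7.94 (SD, n = 6) on the ground, from 30.3% to 51.6%, and 70.6% ± 8.77 (SD, n = 6) in flight, from 57.9% to 80.9%. The 2 genotypes were thus at like shares on the ground, and no flight mouse of either genotype overlapped its ground mice. The mean log2 ratio of Acot1 to Acot2 differed by 1.66 between FL-KO and GC-KO mice (exact two-sided permutation test, p = 0.00216, the smallest p that 6 mice against 6 allow). This ratio was chosen after the data were seen. The summed TPM of the 2 genes rose by 0.56 ± 0.18 in log2 (SE, limma, adjusted p = 0.0177) in FL-KO vs. GC-KO.

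Both thioesterases were at lower levels in Nrf2-KO mice at TPM as deposited, which is again a description. Acot1 in GC-KO mice was 0.526 times and Acot2 0.533 times the mean of GC-WT mice, and for both genes all 6 GC-KO mice were below all 6 GC-WT mice. In flight, Acot1 in FL-KO mice was 0.418 times and Acot2 0.503 times the mean of FL-WT mice. For Acot1, 4 of 6 FL-KO mice were below all FL-WT mice, and for Acot2 all 6 were. GC-KO mice lay wholly below GC-WT mice for 9.15% of all tested genes, and FL-KO below FL-WT mice for 20.6%. The log2 fold changes of Acot1 were -0.41 on the ground and -0.89 in flight, and those of Acot2 -0.45 and -0.45. With scaling they were -0.24 and -0.59 for Acot1, and -0.25 and -0.25 for Acot2. The confidence interval of Acot1 on the ground was then -0.7 to 0.23, which spans both signs. With scaling the ground groups overlapped for both genes. GC-KO mouse 2 was then at 0.873 for Acot1 and 0.852 for Acot2, and GC-WT mouse 6 at 0.669 and 0.825. The flight groups of Acot2 also overlapped with scaling, with FL-KO mouse 1 at 1.08 and FL-WT mouse 10 at 0.845.

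**Figure D2:**
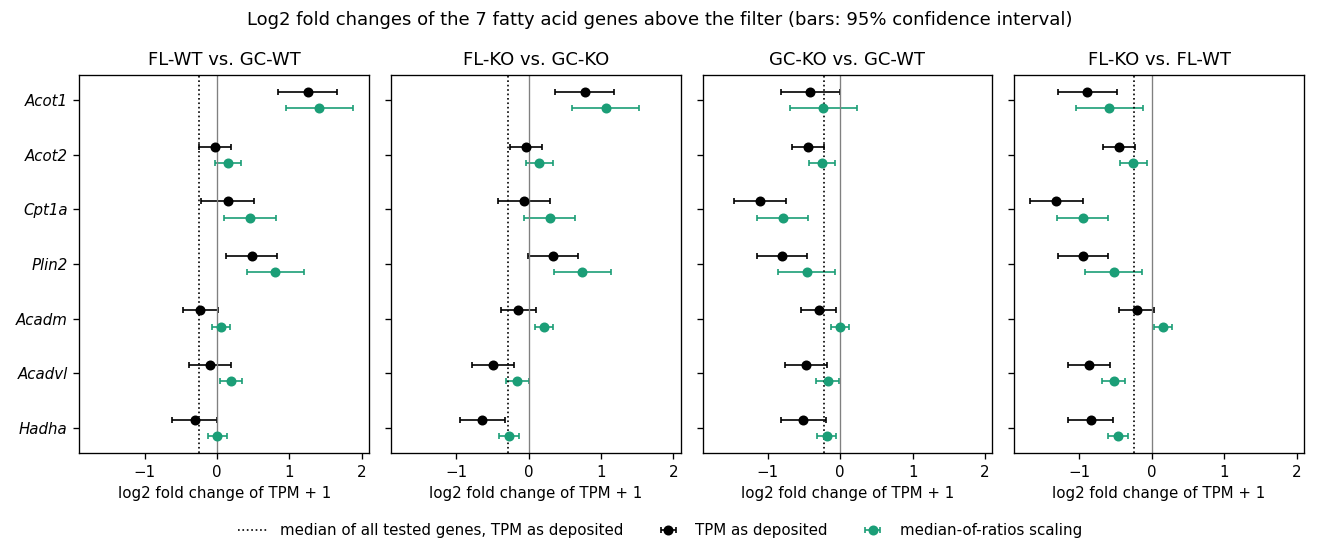
Log2 fold changes of TPM + 1 (horizontal axes) with 95% confidence intervals for the 7 genes above the filter in 4 comparisons, at TPM as deposited (black) and with median-of-ratios scaling (green); the dotted line is the median of all tested genes. Acot1 lies at 1.25 and 0.78 in the flight comparisons and Acot2 at -0.03 and -0.04, while Cpt1a lies at -1.11 and -1.32 in the genotype comparisons.

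Plin2, the lipid droplet coat protein, rose after flight in WT mice. It ranged from 11.2 to 21.5 TPM in GC-WT mice (median 17.3) and from 15.8 to 35.3 TPM in FL-WT mice (median 23.1). The groups overlapped, and 3 of 6 FL-WT mice were above every GC-WT mouse. The mean rose from 17.0 ± 3.51 (SD, n = 6) to 24.4 ± 6.86 TPM (SD, n = 6). Its log2 fold change was 0.48 ± 0.17 (SE, limma, adjusted p = 0.0364). It was the only one of the 5 genes tested in this comparison to pass as higher, and none passed as lower or was a DEG. Of all tested genes, 0.994% passed as higher and 39.0% as lower.

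In Nrf2-KO mice, Plin2 ranged from 6.89 to 10.9 TPM on the ground (median 9.47) and from 9.20 to 15.8 TPM in flight (median 11.6), with 4 of 6 FL-KO mice above every GC-KO mouse. The means were 9.28 ± 1.54 and 12.1 ± 2.74 TPM (SD, n = 6 each). The log2 fold change of 0.33 (95% confidence interval -0.01 to 0.68) did not pass at TPM as deposited (limma, adjusted p = 0.108; exact permutation test, p = 0.0584). It was 0.74 with median-of-ratios scaling (adjusted p = 0.00554), and it also passed without any one of GC-WT mouse 10, FL-WT mouse 5 or 8, GC-KO mouse 2 and FL-KO mouse 9 or 12. The flight changes of the 2 genotypes differed by -0.14 in log2 (95% confidence interval -0.63 to 0.35).

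Plin2 was lower without Nrf2. In GC-KO mice its mean was 0.545 times that of GC-WT mice, all 6 GC-KO mice were below all 6 GC-WT mice, and the log2 fold change was -0.80 ± 0.17 (SE, limma, adjusted p = 0.000856). In flight the ratio was 0.493 and the log2 fold change -0.94 ± 0.17 (SE, limma, adjusted p = 5.94e-05), with 5 of 6 FL-KO mice below all FL-WT mice. With scaling the changes were -0.46 (adjusted p = 0.0458) and -0.53 (adjusted p = 0.0202). The ground groups then overlapped, with GC-KO mouse 2 at 11.7 and GC-WT mouse 10 at 8.87. At TPM as deposited, 9.15% of all tested genes lay wholly lower without Nrf2 on the ground.

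Cpt1a, the outer carnitine palmitoyltransferase that sets the pace of fatty acid entry into mitochondria, differed by genotype, while its flight changes did not pass at TPM as deposited. It ranged from 4.53 to 11.2 TPM in GC-WT mice (median 10.035) and from 7.41 to 13.5 TPM in FL-WT mice (median 10.005). In Nrf2-KO mice it ranged from 2.87 to 4.48 TPM on the ground (median 3.69) and from 2.53 to 4.6 TPM in flight (median 3.42). At TPM as deposited, all 6 GC-KO mice lay below the lowest GC-WT mouse and all 6 FL-KO mice below the lowest FL-WT mouse. GC-WT mouse 10 was far below the other GC-WT mice. Of all tested genes, 9.15% lay wholly lower without Nrf2 on the ground and 20.6% in flight. With median-of-ratios scaling the ground groups overlapped, with GC-WT mouse 10 at 3.60 and GC-KO mouse 2 at 4.57, and the flight groups did not. The means of 3.67 ± 0.749 TPM in GC-KO and 9.31 ± 2.54 TPM in GC-WT mice (SD, n = 6 each) gave a log2 fold change of -1.11 ± 0.18 (SE, limma, adjusted p = 0.000309). In flight, FL-KO mice at 3.47 ± 0.689 TPM and FL-WT mice at 10.3 ± 2.81 TPM (SD, n = 6 each) gave -1.32 ± 0.18 (SE, limma, adjusted p = 2.43e-06). Cpt1a was a DEG in both comparisons, the only one among the 5 genes tested in each. Of all tested genes, 3.17% were DEGs without Nrf2 on the ground and 8.45% in flight.

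With median-of-ratios scaling the genotype differences of Cpt1a were -0.79 (adjusted p = 0.000926) and -0.96 (adjusted p = 7.36e-05), which passed the test and fell short of 2-fold. The flight changes of Cpt1a were 0.15 in WT mice (95% confidence interval -0.22 to 0.51, limma, adjusted p = 0.529) and -0.06 in Nrf2-KO mice (95% confidence interval -0.42 to 0.30, adjusted p = 0.777). With scaling the change in WT mice was 0.45 and passed (adjusted p = 0.056), and that in Nrf2-KO mice was 0.29 (adjusted p = 0.202). Without GC-WT mouse 10 the change in WT mice was -0.02.

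Pdk4, a well-known PPAR target in muscle and heart, was nearly absent. It was at 0.03 to 0.11 TPM in GC-WT mice and 0.03 to 0.05 TPM in FL-WT mice, and at 0.03 to 0.11 TPM in GC-KO mice and 0.01 to 0.05 TPM in FL-KO mice. An exact two-sided permutation test of FL-KO against GC-KO gave p = 0.0714. At these levels a few reads decide a value, and the depth of the libraries is unknown.

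None of the 3 beta-oxidation enzymes passed as higher after flight at TPM as deposited. Hadha, the alpha subunit of the mitochondrial trifunctional protein, had the largest fall after flight in Nrf2-KO mice among the 7 tested genes. It ranged from 5.71 to 9.49 TPM in GC-KO mice (median 7.16) and from 3.47 to 5.63 TPM in FL-KO mice (median 4.23), and the groups did not overlap. The mean fell from 7.39 ± 1.59 to 4.35 ± 0.755 TPM (SD, n = 6 each), with a log2 fold change of -0.64 ± 0.15 (SE, limma, adjusted p = 0.00218; exact permutation test, p = 0.00216). With scaling it was -0.27 (adjusted p = 0.00394), and the groups overlapped, with FL-KO mouse 9 at 6.64 and GC-KO mouse 4 at 6.59. At TPM as deposited, 18.4% of all tested genes lay wholly below the ground mice in this comparison. In WT mice Hadha ranged from 8.65 to 12.4 TPM on the ground and from 6.08 to 12.7 TPM in flight. The change of -0.31 did not pass (limma, adjusted p = 0.117), though it did without GC-WT mouse 3 or 10 or FL-WT mouse 7 or 8, and it was 0.01 with scaling.

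Acadvl, which starts the oxidation of very long chains, ranged from 3.38 to 5.67 TPM in GC-KO mice (median 4.14) and from 1.81 to 3.51 TPM in FL-KO mice (median 3.0), with 5 of 6 FL-KO mice below every GC-KO mouse. The log2 fold change was -0.49 ± 0.14 (SE, limma, adjusted p = 0.00908), and -0.16 with scaling (adjusted p = 0.119). In WT mice the flight change was -0.10 (95% confidence interval -0.39 to 0.19, adjusted p = 0.593). Its sign turned with scaling, to 0.19 (adjusted p = 0.0669). Acadm, which acts on medium chains, passed in neither genotype after flight at TPM as deposited. WT mice averaged 5.42 ± 0.256 TPM on the ground and 4.55 ± 1.13 TPM after flight, and Nrf2-KO mice 4.25 ± 0.693 and 3.74 ± 0.482 TPM (SD, n = 6 each). Its flight changes were -0.23 and -0.14 (limma, adjusted p = 0.131 and 0.308), and the first passed without FL-WT mouse 7 or 8. With scaling they were 0.05 (adjusted p = 0.549) and 0.21 (adjusted p = 0.011).

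Of the 7 genes tested in FL-KO vs. GC-KO, 1 (Acot1) passed as higher and 2 (Acadvl and Hadha) as lower, against 0.299% and 53.1% of all tested genes. None was a DEG, against 2.13%. The median log2 fold change of the 7 genes was -0.06, and that of all tested genes -0.29. The flight changes did not pass a test of a difference between genotypes for any of the 5 genes tested for it (limma, adjusted p = 1 for each). Of all tested genes, 0.0162% passed. The smallest unadjusted p of the 5 was that of Acadvl, 0.0623, with a difference of -0.39 (95% confidence interval -0.80 to 0.02).

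Most of the 8 genes were lower without Nrf2, as were many others. In GC-KO vs. GC-WT, all 5 tested genes passed as lower, against 42.9% of all tested genes, with a median log2 fold change of -0.51 against -0.22. Hadha was at -0.51 ± 0.15 (SE, adjusted p = 0.00878), Acadvl at -0.47 ± 0.14 (SE, adjusted p = 0.00999) and Acadm at -0.30 ± 0.12 (SE, adjusted p = 0.0459). Acadm did not pass without GC-KO mouse 1 or 4. Among these 5, the groups did not overlap at TPM as deposited for Cpt1a, Plin2 and Acadvl, against 9.15% of all tested genes. With scaling the groups overlapped for each of these genes. With scaling, Acadm was at -0.01 (adjusted p = 0.952), and Hadha and Acadvl at -0.19 (adjusted p = 0.0224) and -0.17 (adjusted p = 0.0635).

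In FL-KO vs. FL-WT, 4 of 5 tested genes passed as lower, against 47.2% of all tested genes, with a median of -0.87 against -0.25. FL-KO mice averaged 2.84 ± 0.581 TPM of Acadvl and FL-WT mice 6.10 ± 1.77 TPM (SD, n = 6 each), which gave -0.87 ± 0.14 (SE, limma, adjusted p = 2.23e-05). For Hadha, 4.35 ± 0.755 and 8.77 ± 2.53 TPM gave a log2 fold change of -0.84 ± 0.15 (SE, limma, adjusted p = 5.76e-05). With scaling they were at -0.52 (adjusted p = 7.32e-06) and -0.47 (adjusted p = 5.25e-06). Acadm was the exception, at -0.21 (adjusted p = 0.158), though it passed as lower without FL-WT mouse 5 or 6, and at 0.15 with scaling (adjusted p = 0.0319). Among these 5, the groups did not overlap for Cpt1a, Acadvl and Hadha, against 20.6% of all tested genes. The genotype comparisons share WT or Nrf2-KO mice with the flight comparisons.

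In the order of levels per length, Plin2 was the highest of the 8 genes in each group, and Pdk4 the lowest. In GC-WT mice Plin2 (17.0 TPM) was followed by Hadha (10.9 TPM), Cpt1a (9.31 TPM), Acadvl (6.46 TPM), Acadm (5.42 TPM), Acot2 (1.31 TPM) and Acot1 (1.08 TPM). Each gene overlapped the next of this order between mice, save that Acadm lay below Acadvl and above Acot2 in all mice. In FL-WT mice Acot1 (4.28 TPM) was above Acot2 (1.29 TPM) in every mouse and overlapped Acadm (4.55 TPM).

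The genes whose levels were most like those of Acot1 over the 24 libraries, by Pearson's r of log2(TPM + 1) among the 10420 genes that averaged 1 TPM or more, were Slc25a20, Plin2, Slc7a11, Srgn and Retnlg. This is a description, and all 24 points share the 4 groups, so flight and genotype enter each r. Slc25a20, the carrier that takes acylcarnitines into mitochondria, had an r of 0.904. It ranged from 3.44 to 5.69 TPM in GC-WT, 4.61 to 8.09 TPM in FL-WT, 2.74 to 3.70 TPM in GC-KO and 3.74 to 6.95 TPM in FL-KO mice. Its mean was 1.46 times as high in FL-WT as in GC-WT mice and 1.52 times as high in FL-KO as in GC-KO mice. Plin2 had an r of 0.813. Slc7a11, the cystine transporter, had an r of 0.787, and Srgn, the proteoglycan of secretory granules, 0.766. Retnlg, a gene of mature neutrophils, had an r of 0.761. With scaling, the r of Slc25a20 was 0.886 and that of Plin2 0.912. Among the other genes described here, r was 0.545 for Cpt1a, 0.486 for Acot2, 0.179 for Acadvl, -0.0023 for Hadha and -0.067 for Acadm.

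**Figure D3:**
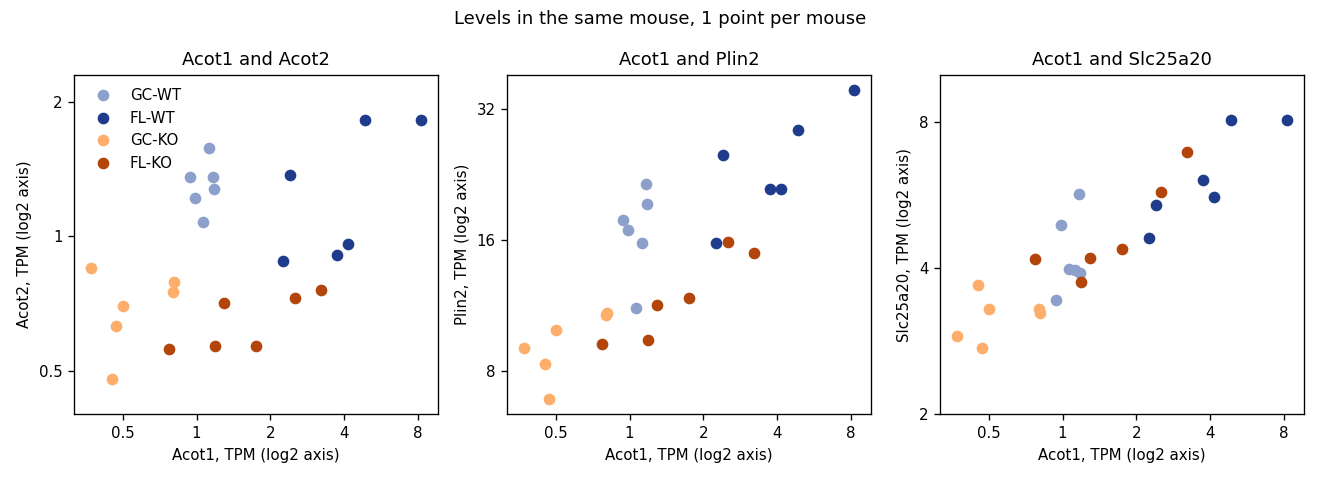
TPM of Acot1 (horizontal axes) against Acot2, Plin2 and Slc25a20 (vertical axes) in the same mouse, on log2 axes, with a point per mouse coloured by group. All 6 FL-WT mice lie to the right of the GC-WT mice and 5 of 6 FL-KO mice to the right of the GC-KO mice. Over all 24 mice, r of log2(TPM + 1) with Acot1 was 0.813 for Plin2 and 0.904 for Slc25a20, and differences between the groups enter both.

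Within the groups, Acot1 and Plin2 of WT mice had an r of 0.294 on the ground (exact permutation p = 0.621) and 0.801 in flight (exact permutation p = 0.0611). In Nrf2-KO mice r was 0.699 on the ground (exact permutation p = 0.132) and 0.938 in flight (exact permutation p = 0.00833). Spearman's rho, in the same order, was 0.429, 0.771, 0.771 and 0.943 (exact permutation p = 0.419, 0.103, 0.103 and 0.0167, n = 6 each). Over the 24 relations of Acot1 with 6 genes in 4 groups, the lowest adjusted p was 0.2 for r and 0.267 for rho (exact permutation tests), so none passed. Without the 2 mice farthest from the median of Acot1, r was 0.974 and 0.104 in WT mice and -0.046 and 0.952 in Nrf2-KO mice, on the ground and in flight. With so few mice left and a narrower range of Acot1, these values do not show whether a relation rested on single mice.

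Of the 8 markers of mature neutrophils, 5 passed as higher after flight in WT mice, where Acot1 and Plin2 were also higher. Csf3r (-0.41) and Cxcr2 (-0.04) were lower there and did not pass. Most of the summed TPM of these markers came from S100a8 and S100a9. The sum had a median of 33320 in GC-WT mice (24310 to 48750) and 50120 in FL-WT mice (39120 to 54380). In Nrf2-KO mice the medians were 44150 (37250 to 57330) and 46570 (45340 to 61850), where 1 passed as higher and 1 as lower. With scaling, 7 of 8 passed as higher in WT mice, and 6 as higher and 1 as lower in Nrf2-KO mice. B progenitor markers fell in both genotypes, with 10 of 11 passing as lower in each. Their summed TPM ranged from 211.3 to 305.1 in GC-WT and 95.3 to 242.2 in FL-WT mice, and from 138.4 to 205.4 in GC-KO and 76.8 to 128.4 in FL-KO mice. Of the 11 erythroid markers, 6 passed as lower after flight in WT and 7 in Nrf2-KO mice, and 6 in each with scaling, with 4 and 1 as higher. The 6 tested markers of stroma and endothelium all passed as lower in both genotypes, and 2 in each with scaling. Beside these counts, 39.0% of all tested genes passed as lower in WT and 53.1% in Nrf2-KO mice at TPM as deposited. As higher, 0.994% and 0.299% passed. The 8 adipocyte markers summed to between 4.88 and 10.8 TPM over all 24 libraries. Among them Plin1, Cidec and Lep, which define fat cells, did not exceed 0.04 TPM in any library, Adipoq did not exceed 2.4 TPM, and Fabp4, which other cells also express, ranged from 3.06 to 8.68 TPM. The 8 skeletal muscle markers summed to between 1.42 and 7.35 TPM and were at medians of 4.18 and 4.78 TPM on the ground and 2.19 and 2.47 TPM in flight, in WT and Nrf2-KO mice in turn. The part of these marker changes in the results of the 8 genes was not tested.

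In the wider network of fatty acid genes, set out in 10 lists, few genes passed as higher after flight at TPM as deposited, and more did with scaling, as over all tested genes. At TPM as deposited, 0.994% of all tested genes passed as higher and 39.0% as lower after flight in WT mice. In Nrf2-KO mice the shares were 0.299% and 53.1%. Of the other 5 thioesterases tested, none passed in WT mice after flight and 2 passed as lower in Nrf2-KO mice, while with scaling 3 and 2 passed as higher and none as lower. Acot9, a mitochondrial thioesterase and the most abundant of the list, averaged 8.20 ± 1.23 TPM in ground WT mice and 8.91 ± 2.23 TPM in those that flew (SD, n = 6 each). Of the 17 mitochondrial beta-oxidation genes tested, 1 passed as lower in WT and 6 in Nrf2-KO mice after flight, and none as higher. Their median fold change was 0.14 above that of all genes in WT mice and 0.13 above it in Nrf2-KO mice. With median-of-ratios scaling, 8 of the 17 passed as higher in WT mice and 8 in Nrf2-KO mice, and 0 and 2 as lower. Etfb, which passes electrons from the acyl-CoA dehydrogenases, was the most abundant, with GC-WT mice at 36.7 ± 6.91 TPM and FL-WT mice at 44.3 ± 10.3 TPM (SD, n = 6 each).

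In the carnitine shuttle, 1 of 5 tested genes (Slc25a20) passed as higher and 2 as lower in each flight comparison. The shares of all tested genes were 0.994% higher and 39.0% lower in WT mice, and 0.299% and 53.1% in Nrf2-KO mice. With scaling, 2 passed as higher and 1 as lower in WT mice, and 1 and 2 in Nrf2-KO mice. In the list of lipid droplets and lipolysis, 2 of 10 passed as higher and 1 as lower after flight in WT mice, and 6 and 1 with scaling. The 2 were Plin2 and G0s2, an inhibitor of the lipase Pnpla2. For G0s2, GC-WT mice averaged 19.4 ± 2.6 TPM and FL-WT mice 30.4 ± 7.81 TPM (SD, n = 6 each). The log2 fold change was 0.60 ± 0.15 (SE, limma, adjusted p = 0.00635), with 5 of 6 FL-WT mice above every GC-WT mouse. In Nrf2-KO mice it was at 19.5 ± 3.58 and 18.3 ± 3.93 TPM, a change of -0.09 (adjusted p = 0.617) and of 0.33 with scaling (adjusted p = 0.0867). None of the 10 passed as higher and 3 passed as lower in Nrf2-KO mice after flight, and 3 and 3 with scaling.

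Cd36, the membrane transporter of fatty acids and the most abundant gene of uptake and activation, was lower after flight and higher without Nrf2. WT mice averaged 31.9 ± 7.62 TPM on the ground and 20.4 ± 4.0 TPM after flight, and Nrf2-KO mice 46.2 ± 8.98 and 28.0 ± 5.12 TPM (SD, n = 6 each). Its log2 fold changes after flight were -0.61 in WT mice (limma, adjusted p = 0.00989) and -0.70 in Nrf2-KO mice (adjusted p = 0.00235), and both were -0.27 and did not pass with scaling (adjusted p = 0.231 and 0.2). Without Nrf2 it was higher by 0.54 on the ground (adjusted p = 0.0122) and by 0.45 in flight (adjusted p = 0.0308), and by 0.88 in each case with scaling. In the whole list, 4 of 9 genes passed as lower in WT and 5 in Nrf2-KO mice after flight, near the shares of all tested genes (39.0% and 53.1%), and 0 and 1 as higher. With scaling, 0 and 1 passed as lower and 3 and 2 as higher.

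None of the PPAR receptors and coregulators passed as higher after flight. Of 7 tested, 5 passed as lower after flight in WT mice and all 7 in Nrf2-KO mice, with median log2 fold changes of -0.38 and -0.52 (against 39.0% and 53.1% of all tested genes, with medians of -0.24 and -0.29). With scaling, 1 and 3 passed as lower and none as higher. Without Nrf2, 6 passed as lower on the ground and 6 in flight (against 42.9% and 47.2% of all tested genes), and 6 and 5 with scaling, with 1 as higher in each case. Rxrb, a partner of PPAR, and Ppard, the delta receptor, were DEGs without Nrf2 in flight at -1.17 and -1.04. Ncor1, a corepressor, was the most abundant, with GC-WT mice at 21.6 ± 4.46 TPM and FL-KO mice at 8.02 ± 1.72 TPM (SD, n = 6 each).

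Of the other known PPAR targets, only 2 of 10 were above the filter. Ucp2, a carrier of the mitochondrial inner membrane, averaged 164 ± 33.8 TPM on the ground and 108 ± 36.1 TPM after flight in WT mice, and 103 ± 31.0 and 39.4 ± 7.71 TPM in Nrf2-KO mice (SD, n = 6 each). It was a DEG after flight in Nrf2-KO mice, at -1.33 ± 0.20 (SE, limma, adjusted p = 3.71e-05), and without Nrf2 in flight, at -1.39 ± 0.20 (SE, limma, adjusted p = 4.71e-06). With scaling the changes were -0.90 and -0.96. At TPM as deposited, Ucp2 was the only DEG of the 10 lists between FL-KO and GC-KO mice, where Acot1 rose. With scaling the change of Ucp2 there fell short of 2-fold, and that of Acot1 (1.06) did not. Angptl4, the other target tested, did not pass after flight in WT mice (0.01, limma, adjusted p = 0.943) or Nrf2-KO mice (-0.07, limma, adjusted p = 0.524).

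Most genes of fatty acid synthesis were lower without Nrf2. Of 10 tested, 9 passed as lower on the ground and 9 in flight, with medians of -0.83 and -0.93, and 2 and 5 of them were DEGs. Of all tested genes, 42.9% and 47.2% passed as lower, with medians of -0.22 and -0.25, and 3.17% and 8.45% were DEGs. With scaling, 8 and 8 passed as lower and 0 and 1 as higher. Scd2, a desaturase, was at -1.14 and -1.04, and Acly, which makes cytosolic acetyl-CoA, at -1.10 and -1.5. Elovl1 (-1.35), Srebf1 (-1.21) and Fasn (-1.13) were DEGs in flight, and Elovl1 was the most abundant, with GC-WT mice at 23.3 ± 4.26 TPM and FL-KO mice at 6.88 ± 0.968 TPM (SD, n = 6 each). Among lipid droplet genes, Pnpla2, which starts triglyceride breakdown, was a DEG at -1.20 on the ground and -1.82 in flight, and the lipase Lipe (-1.24) and Dgat1 (-1.19), which makes triglyceride, were DEGs in flight. Slc27a4, a fatty acid transporter, was a DEG at -1.59 in flight. Each of the DEGs named here also passed with scaling, where they ranged from -0.75 to -1.49. Of the 17 mitochondrial beta-oxidation genes, 7 and 10 passed as lower and none was a DEG, while with scaling 5 and 5 passed as lower and 7 and 7 as higher. Scp2, of peroxisomes, was the most abundant gene of its list, with GC-WT mice at 72.5 ± 15.1 TPM and GC-KO mice at 71.8 ± 8.86 TPM (SD, n = 6 each), and 6 of the 10 peroxisomal genes tested passed as lower on the ground and 7 in flight (4 and 5 with scaling, with 2 and 3 as higher).

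Pyruvate dehydrogenase and its kinases and phosphatases, the list that holds Pdk4, had 7 tested genes, of which 2 passed as lower after flight in WT mice and 3 in Nrf2-KO mice. Without Nrf2, 3 passed as lower on the ground and 5 in flight, and none passed as higher in the 4 comparisons. The shares of all tested genes that passed as lower were 39.0%, 53.1%, 42.9% and 47.2%, in the same order. With scaling, 3, 1, 1 and 1 passed as higher and 2, 1, 1 and 2 as lower. Pdhb, a subunit of the enzyme, was the most abundant, with GC-WT mice at 16.4 ± 1.72 TPM and FL-KO mice at 10.3 ± 1.78 TPM (SD, n = 6 each).

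**Figure D4:**
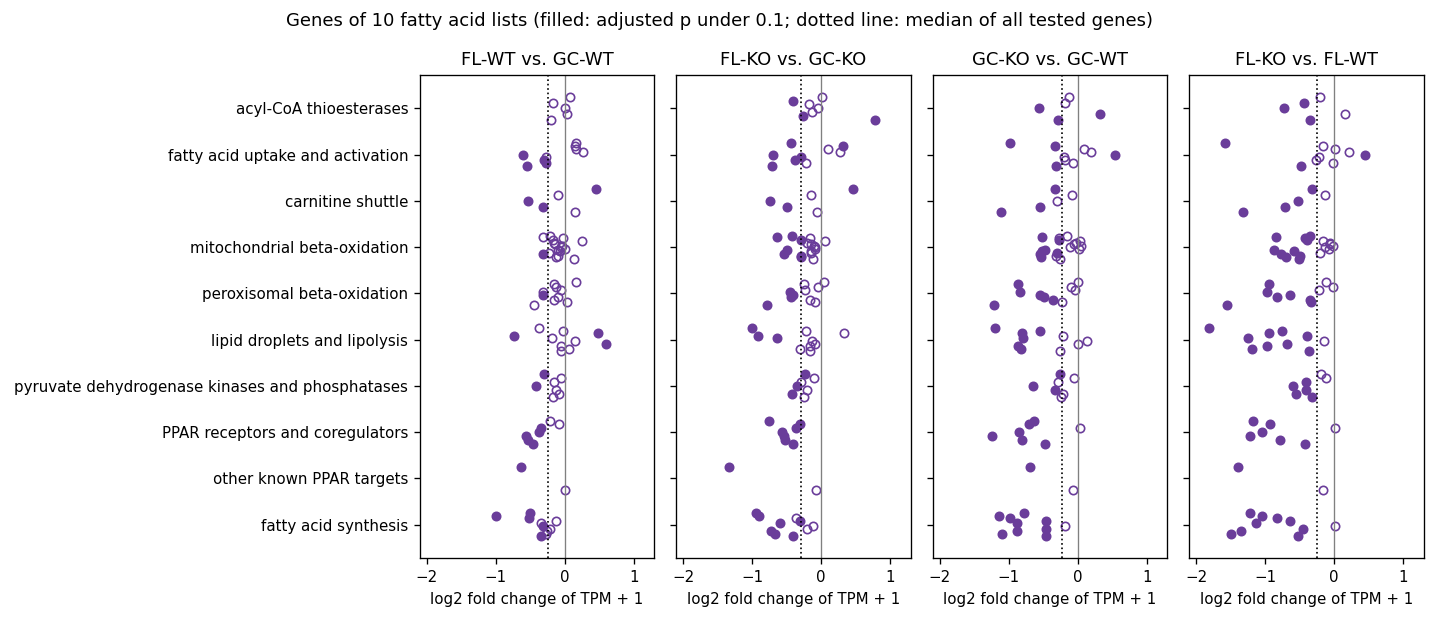
Log2 fold changes of TPM + 1 (horizontal axes) of the genes of 10 fatty acid lists in 4 comparisons, with a point per gene, filled where the adjusted p was under 0.1, and the median of all tested genes as a dotted line; Acot1 and Acot2 are drawn only for FL-KO vs. GC-KO, where they were tested. Acot1 is the thioesterase at 0.78 there, while 7 of 7 PPAR receptors and coregulators passed as lower (3 with scaling).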

How the data were processed

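RNA of cryopreserved bone marrow cells from 24 mice was isolated with ISOGEN-LS, and directional MGIEasy libraries were sequenced on the DNBSEQ-G400. The authors mapped reads to mm10 with STAR (version 2.6.1) and estimated the TPM values of the deposited table with RSEM (version 1.3.1). Each library summed to between 999999.5 and 1000001.1. No counts were used, so the depth and counting error are unknown. Groups and mouse numbers were taken from the sample labels.

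Genes with a TPM above 1 in at least 1 library (12373 of 54752) were tested on log2(TPM + 1) with limma 3.58.1 (R 4.3.3), with a mean per group over 24 libraries. "Passed" means a Benjamini-Hochberg adjusted p under 0.1, and DEGs also changed at least 2-fold. Single values were tested with exact two-sided permutation tests (scipy 1.17.1). In a simulation of FL-KO vs. GC-KO over 12373 genes, 99.5% of 200 changed genes were called. The share called among genes with levels and changes as low as those of Acot1 was not tested. Symbols, coordinates and transcripts came from GENCODE M21 on GRCm38, which matched 54723 identifiers, and promoters from RefSeq.

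The 8 genes, the gene lists and the tests were chosen with earlier results of these data known. Named genes were the 8 genes in every comparison, each DEG of a list (at most 5 per list and comparison, some of which are not reported here), the most abundant gene of each list and the 5 genes most like Acot1. Alternatives were another pseudocount (0.1), no filter or a filter in 6 libraries, median-of-ratios scaling, quantile normalization, TPM without 5 small RNAs, removal of GC content and length trends, a limma trend, a fit per pair of groups, no minimum fold change, a threshold of 0.05 for adjusted p, a block for the mouse number, and each library left out.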

Additional observations from a re-analysis of the deposited data

Results flagged for a closer look

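Among the 32 sets of 6 mice (8 genes in 4 groups), 3 held a mouse that stood apart from the others by Dixon's test at the 95% level, which chance gives in about 1 of 20 sets. Cpt1a was at 4.53 TPM in GC-WT mouse 10, against 8.95 to 11.2 TPM in the other GC-WT mice. Acadm was at 2.83 TPM in FL-KO mouse 2, against 3.67 to 4.08 TPM in the other FL-KO mice. Acadvl was at 7.80 TPM in GC-WT mouse 8, against 5.79 to 6.46 TPM in the other GC-WT mice.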

How the results depend on the processing

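Depth is unknown, so values near 1 TPM, those of Acot1 and Acot2 among them, have an unknown counting error. The rise of Acot1 in FL-KO vs. GC-KO passed under every alternative, and was from 0.65 to 0.90 with a library left out. The sum of Acot1 and Acot2 rose by 0.56 and also passed. The log2 ratio of Acot1 to Acot2, chosen after the data were seen, differed by 1.66. That ratio has no pseudocount and was tested only by exact permutation, with no adjusted p. None of the genes tested in FL-WT vs. GC-WT was a DEG, and 1 passed. Without a minimum fold change, 1 gene was called after flight in WT mice and 3 in Nrf2-KO mice, and 5 without Nrf2 on the ground and 4 in flight. With median-of-ratios scaling, quantile normalization, TPM without 5 small RNAs, removal of GC content and length trends or the block, 3 genes passed in FL-WT vs. GC-WT, though not the same 3 in each case, and from 1 to 3 with a library left out. The highest count came without FL-WT mouse 7 or 8, where Acadm and Hadha passed too, and 2 genes passed without GC-WT mouse 3 or 10. In FL-KO vs. GC-KO, 1 gene (Acot1) was a DEG with a pseudocount of 0.1, scaling, quantile normalization, TPM without 5 small RNAs or removal of the trends, and 5 genes passed with quantile normalization or removal of the trends. With scaling, quantile normalization or removal of the trends, 0 genes were DEGs without Nrf2 on the ground and in flight, and 3 passed on the ground with the last 2. In FL-KO vs. FL-WT, 2 genes were DEGs with a pseudocount of 0.1, and from 1 to 2 with a library left out, with 2 without FL-WT mouse 5, FL-KO mouse 1 or FL-KO mouse 4. The causes were not tested.

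Signs turned as follows with scaling, quantile normalization and removal of the trends in turn, where the sign did. In FL-WT vs. GC-WT, Acadm was at 0.05 and 0.07, Acadvl at 0.19, 0.19 and 0.14, and Hadha at 0.01 with scaling and 0.03 without the trends. In FL-KO vs. GC-KO, Acot2 was at 0.15, 0.22 and 0.34, Cpt1a at 0.29, 0.34 and 0.38, Acadm at 0.21, 0.25 and 0.10, and G0s2 at 0.33, 0.26 and 0.20. Without 5 small RNAs, Acot2 was at 0.05, Cpt1a at 0.09 and G0s2 at 0.08 there, and the difference of the flight changes of Plin2 between genotypes at 0.06. Without Nrf2, Acadm was at 0.04 with quantile normalization on the ground, and at 0.15 with scaling and 0.23 with quantile normalization in flight. Cpt1a was at -0.02 after flight in WT mice without GC-WT mouse 10, and between -0.13 and 0.00 with a library left out in FL-KO vs. GC-KO, the last without FL-KO mouse 12.

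Ground and flight mice share numbers in the labels. Deviations of same-numbered mice from their group means correlated between -0.027 and 0.273, not all above 0.1, and 8 of 24 libraries correlated best with their own number. These values do not settle whether the numbers pair the mice, and the tests above used no block for them. With the mouse number as a block, 3 genes passed after flight in WT mice and 4 in Nrf2-KO mice, and Acot1 was at 0.78 in Nrf2-KO mice (limma, adjusted p = 0.00326). Over all tested genes, the block moved the counts from 123 higher and 4821 lower to 229 and 6080 in FL-WT vs. GC-WT.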
